A study of Homo sapiens with 34 samples.

Results

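The genes described here are 10 endothelial junction and identity genes, PECAM1, CDH5, CLDN5, ESAM, EMCN, VWF, TEK, TIE1, EGFL7 and CD34, of the 20255 genes in the expression table. They were taken by gene symbol and followed through all 12 populations, with the question of which of them stayed expressed in CD43+ blood cells and until which day. H1 human embryonic stem cells, an established line, were aggregated into embryoid bodies (EBs) that attached to collagen IV from day 0, and the cells spread from them as a planar culture in defined medium without added haematopoietic cytokines. BMP4 and hVEGF were given from the start of attachment until about day 2 and hVEGF as the only growth factor afterwards. Day 0 EBs are labelled BMP4+hVEGF and all later cells hVEGF, so the day 2 cells had also been grown with BMP4, and the undifferentiated H1 cells were untreated. Unsorted cells were taken at days 0, 2 and 4. At days 6, 9 and 12 the cells were sorted into CD43+ and CD43- populations, and at day 16 into CD43+/CD45+ and CD43-CD45- populations, called CD43+ and CD43- below. Between day 16 and an earlier sorted day both the day and the sort differ, and the 2 cannot be told apart. Each of the 11 differentiated populations had 3 independent replicates and the undifferentiated cells had 1 sample, 34 in all. No population was sorted on an endothelial surface protein, so the CD43- cells are a mixture, and the 1 line sets the genetic background of every sample.

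Endothelial cells line the vessels and hold together through adherens junctions, built on VE-cadherin, and tight junctions, built on claudins and immunoglobulin-like adhesion molecules. In the embryo blood cells can bud from haemogenic endothelium, a process in which cells loosen these contacts and take up a blood programme. Several genes of the set are not restricted to endothelium: PECAM1 is also carried by platelets and leucocytes, ESAM and VWF by the megakaryocyte lineage, and CD34 by blood progenitors.

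Expression was given in whole-number tag counts that the authors had normalized for GC content. Every sample held the same 20255 values in another order, with a median of 197, so a value tells how a gene ranked in its sample, and the sequencing depth cannot be read from it. The values are not scaled by gene length, and levels of the members are therefore compared within a gene. The exception is persistence by level, which sets every gene against a common value that is not corrected for gene length. Differences were tested with limma on log2(value + 1) over 19788 genes, and a gene was called at a Benjamini-Hochberg adjusted p below 0.05 and a fold change above 4, that is a log2 fold change beyond 2 in size. The words rose and fell are kept for called differences. Since these are bulk samples, fewer endothelial cells in a population and less RNA per cell cannot be told apart.

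All 10 genes are protein-coding, with GRCh38 coordinates that were identical in the deposited table and in GENCODE. Their positions are CDH5 at chr16:66366622-66404786, PECAM1 at chr17:64319415-64413776, CLDN5 at chr22:19523024-19527545, ESAM at chr11:124752583-124762290, EMCN at chr4:100395341-100880126, CD34 at chr1:207880972-207911402, TIE1 at chr1:43300993-43323108, TEK at chr9:27109141-27230175, VWF at chr12:5948874-6124770 and EGFL7 at chr9:136658856-136672678. CDH5, TEK, TIE1 and EGFL7 are on the plus strand and the other 6 on the minus strand.

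RefSeq promoters of GRCh38.p14 were given for 5 of the 10 genes, EMCN, TEK, TIE1, EGFL7 and CD34. The 250 bases before the start were searched on both strands for the ETS letters CCGGAA, the ETS letters AGGAAG and the ETS letters ACAGGAA, for the GATA letters AGATAA and the GATA letters TGATAA, for the SOX letters ACAAT and for the E-box letters CANNTG, which stand for families of transcription factors active in endothelium and early blood. The letters AGGAAG were found in 3 of the 5 windows, those of EMCN, TIE1 and EGFL7, and in 28.7% of all 35116 promoter windows of this length. Those 3 windows are shown because they contrast a gene called lower in CD43+ than in CD43- cells from day 9 (EMCN), one so called on day 16 (TIE1) and one called on no day (EGFL7). Capitals mark the ETS, GATA and SOX letters, and E-box letters are left in lower case.
EMCN: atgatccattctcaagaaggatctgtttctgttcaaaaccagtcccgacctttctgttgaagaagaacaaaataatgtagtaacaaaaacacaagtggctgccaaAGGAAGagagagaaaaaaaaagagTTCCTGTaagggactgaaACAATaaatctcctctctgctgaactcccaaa
TIE1: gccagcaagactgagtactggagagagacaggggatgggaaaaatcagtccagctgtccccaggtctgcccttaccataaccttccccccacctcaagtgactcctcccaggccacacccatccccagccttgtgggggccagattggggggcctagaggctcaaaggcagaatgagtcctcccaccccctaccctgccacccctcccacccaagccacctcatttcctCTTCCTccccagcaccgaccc
EGFL7: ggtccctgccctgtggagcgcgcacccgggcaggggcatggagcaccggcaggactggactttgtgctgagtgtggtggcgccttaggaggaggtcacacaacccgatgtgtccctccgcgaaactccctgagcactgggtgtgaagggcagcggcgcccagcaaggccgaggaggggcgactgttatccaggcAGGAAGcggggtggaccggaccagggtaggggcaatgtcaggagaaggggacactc
The EMCN sequence is chr4:100518094-100518272 on the minus strand, 179 bases that stop before an exon in GENCODE. The TIE1 sequence is chr1:43300732-43300981 and the EGFL7 sequence chr9:136658606-136658855, both on the plus strand. The EMCN window also held ACAGGAA, read on the other strand and found in 5.87% of all windows, ACAAT, found in 24.6%, and, in the 71 bases not shown, TGATAA, found in 6.66%. TEK held ACAAT and no ETS or GATA letters, CD34 held none of the ETS, GATA or SOX letters, and CCGGAA (14.5% of all windows) and AGATAA (9.17%) were in none of the 5. E-box letters were in 4 of the 5 windows and in 61.8% of all. None of the matches shown overlapped another. These letters are a description of the windows, no binding was measured, and the 3 genes with AGGAAG did not share a course in CD43+ cells.

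The day of onset differed between the genes. At day 0 and day 2, 8 of the 10 genes had all of their values below the median of 197, the exceptions being EGFL7 at 615 to 1122 and TEK, which stood at 265 to 343 on day 0 and 86 to 122 on day 2. From day 2 to day 4, 7 of the 10 genes rose, against 4.97% of all genes tested. PECAM1, the adhesion molecule CD31, stood at 2, 2 and 2 on day 2 and at 1362, 1304 and 1590 on day 4, a difference of 8.88 ± 0.34 on the log2 scale (SE, n = 3 and 3, adjusted p = 1.13e-16 by limma). CD34, a sialomucin of vessels and blood progenitors, stood at 10, 6 and 10 and then at 1278, 1518 and 1319 (7.18 ± 0.34). CDH5, VE-cadherin itself, stood at 18, 16 and 16 and then at 2330, 2512 and 2248 (7.06 ± 0.37). For these 3 genes every day 4 sample was far above every day 2 sample.

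The other 4 genes that rose by day 4 were TEK, the angiopoietin receptor TIE2 (log2 fold change 4.71 ± 0.35), ESAM, an adhesion molecule of tight junctions (3.92 ± 0.51), TIE1, the partner receptor of TEK (3.10 ± 0.27), and EGFL7, a secreted vascular matrix protein (2.58 ± 0.19). CLDN5, EMCN and VWF were not called. CLDN5, the claudin of endothelial tight junctions, stood at 2, 3 and 8 on day 4, and EMCN, an endothelial sialomucin, at 1, 4 and 10. VWF, the adhesive glycoprotein that endothelium stores for release at injury, stood at 56, 103 and 76 on day 2 and at 194, 216 and 210 on day 4, a difference of 1.43 ± 0.47 with an adjusted p of 0.0182, under the 4-fold limit. From day 0 to day 2 only ESAM was called (2.89 ± 0.51, 1 of 10 against 4.4% of all genes higher), from 4, 0 and 2 to 16, 16 and 20, values near the bottom of the table that gave no call with a pseudocount of 10.

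On day 6 CLDN5 and EMCN, not called before, were called above day 4 in both sorted populations. In CD43- cells 7 of the 10 rose over day 4, against 4.94% of all genes, and in CD43+ cells 4 of the 10, against 6.8%. CLDN5 reached 1821, 898 and 406 in CD43- cells, 7.52 ± 0.62 above day 4 on the log2 scale, and 436, 274 and 185 in CD43+ cells, 5.89 ± 0.62 above. EMCN reached 316, 116 and 72 in CD43- cells (4.86 ± 0.49) and 56, 44 and 34 in CD43+ cells (3.22 ± 0.49, not called with a pseudocount of 10, at 1.89). ESAM and TIE1 also rose in both, by 3.45 ± 0.51 and 2.95 ± 0.27 in CD43- cells and by 2.50 ± 0.51 and 2.35 ± 0.27 in CD43+ cells. VWF (3.42 ± 0.47), CDH5 (2.27 ± 0.37) and CD34 (2.15 ± 0.34) were called in CD43- cells. Their differences in CD43+ cells were 1.85 ± 0.47, 1.19 ± 0.37 and 1.02 ± 0.34, and that of VWF was past 4-fold without day 6 CD43+ replicate 3 (2.05). Without day 6 CD43- replicate 1, CDH5 stood at 1.68 and CD34 at 1.61 in CD43- cells, under the 4-fold limit. PECAM1 in CD43+ cells was 1.97 ± 0.34 above day 4 and passed the limit without day 4 replicate 3 (2.06) or without day 6 CD43+ replicate 2 (2.004). In CD43- cells it was 1.57 ± 0.34 above, past the limit without day 6 CD43- replicate 3 (2.08).

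**Figure D1:**
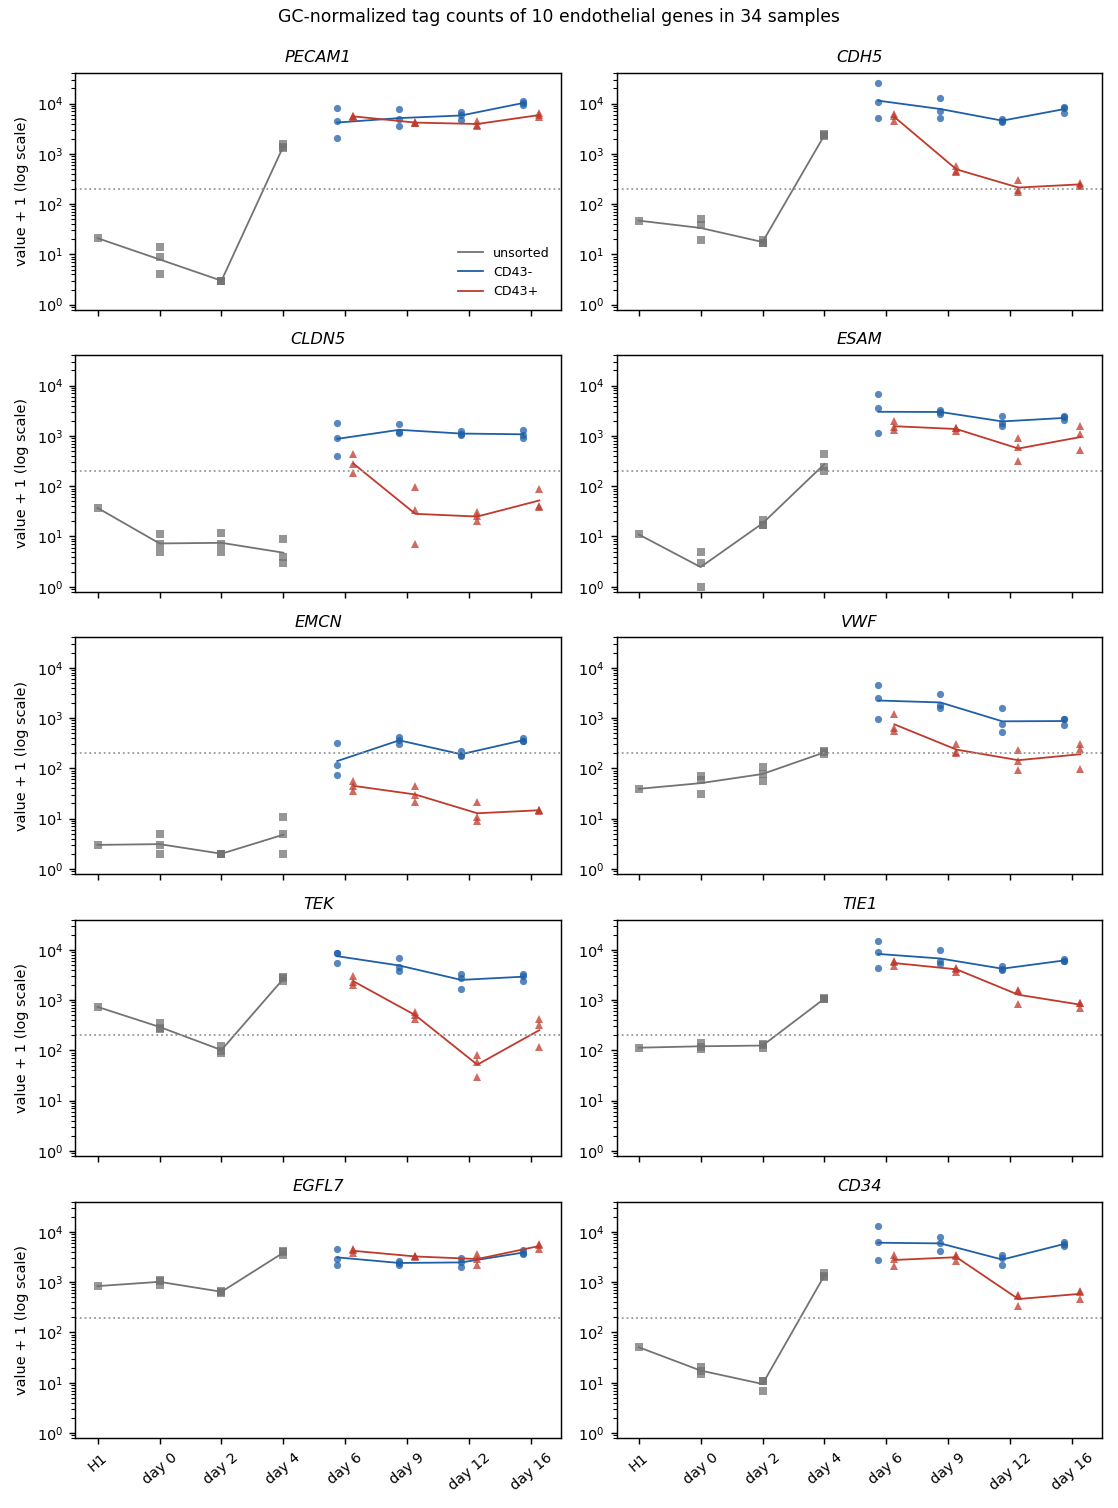
GC-normalized tag counts plus 1 of the 10 genes on a log axis, for undifferentiated H1 cells (H1) and days 0 to 16. Each point is 1 sample, lines join geometric means, and the dotted line is the median of all genes (197). The CD43+ points of CDH5, CLDN5, EMCN, VWF and TEK drop away from the CD43- points after day 6, while those of PECAM1 and EGFL7 stay near them.

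The 3 day 6 CD43- replicates were far apart for most genes of the set, though less so for TEK (8793, 8494 and 5550). Replicate 1 was the highest and replicate 3 the lowest for all 10 genes. CDH5 stood at 25876, 10844 and 5254, CD34 at 12844, 6366 and 2758 and ESAM at 6895, 3554 and 1116. The value in replicate 1 was 1.58 times that in replicate 3 for TEK, the least of the 10, and 6.18 times for ESAM, the most. A list of 32 other endothelial genes, with KDR, FLT1, PLVAP and ROBO4 among them, moved the same way, with summed values of 256828, 136066 and 55839, whereas 11 mesenchymal genes, led by COL3A1, summed to 203771, 209736 and 249538. The CD43+ cells of the same day summed to 62544, 51546 and 70923 for the endothelial list. The part of this spread in the day 6 results was not tested, and results that move with 1 of these samples are given with and without it.

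**Figure D2:**
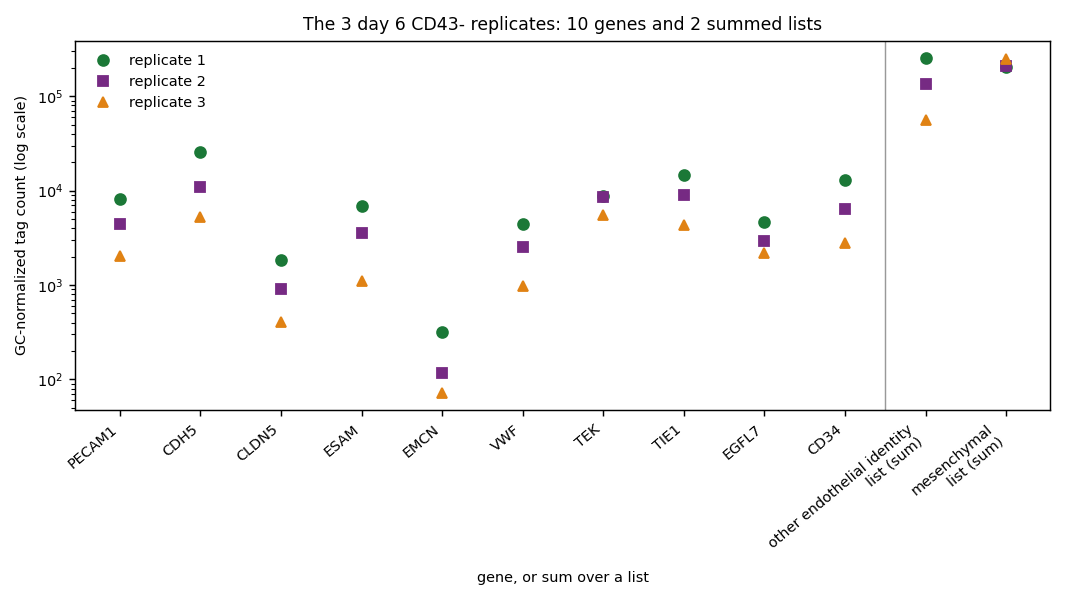
Values of the 10 genes and summed values of 2 gene lists in the 3 day 6 CD43- replicates, on a log axis, 1 marker shape per replicate. All 10 genes and the list of other endothelial genes order the replicates alike, with replicate 1 highest, and the mesenchymal sums lie close together.

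The CD43 sort was checked on the genes of its antigens. SPN, which encodes CD43, was at 5979 to 8780 in day 6 CD43+ cells and at 19 to 49 in day 6 CD43- cells, and it was called higher in CD43+ cells on all 4 days (log2 fold changes 7.85, 8.63, 5.30 and 4.14 on days 6, 9, 12 and 16). PTPRC, which encodes CD45, was at 0 to 8 in day 6 CD43+ cells and at 10084 to 15868 in day 16 CD43+ cells. It ranged from 4 to 371 in day 12 CD43- cells, where monocyte and macrophage genes summed to 440, 6382 and 9244.

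On day 6 none of the 10 genes was called different between CD43+ and CD43- cells, a count near the background, as 12.5% of all genes were called. By limma, 8 of the 10 had an unadjusted p below 0.05, and 6 an adjusted one, CDH5, CLDN5, EMCN, VWF, TEK and CD34, all lower in CD43+ cells by less than 4-fold. The median log2 fold change of the 10 was -1.11, against 0.14 over all genes tested. Without day 6 CD43- replicate 3, CLDN5 (-2.18), EMCN (-2.10) and VWF (-2.17) were called. The count grew afterwards to 5 of 10 lower on day 9 (12.8% of all genes lower), 6 of 10 on day 12 (14.4%) and 7 of 10 on day 16 (13.6%), with medians of -2.12, -2.59 and -3.11 against 0.24, 0.22 and 0.14 over all genes. No member was called higher in CD43+ cells on any of the 4 days, on which 4.69%, 8.65%, 11.8% and 12.2% of all genes were, so these counts were near the background. Whether the difference itself changed after day 6 was tested in the same fit. It had become more negative by more than 4-fold for 2 genes on day 9 (4.18% of all genes), 4 on day 12 (10% of all genes) and 5 on day 16 (9.69%). The day 9 count was 4 without day 6 CD43- replicate 1, and the day 16 count was 3 without day 6 CD43- replicate 3.

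**Figure D3:**
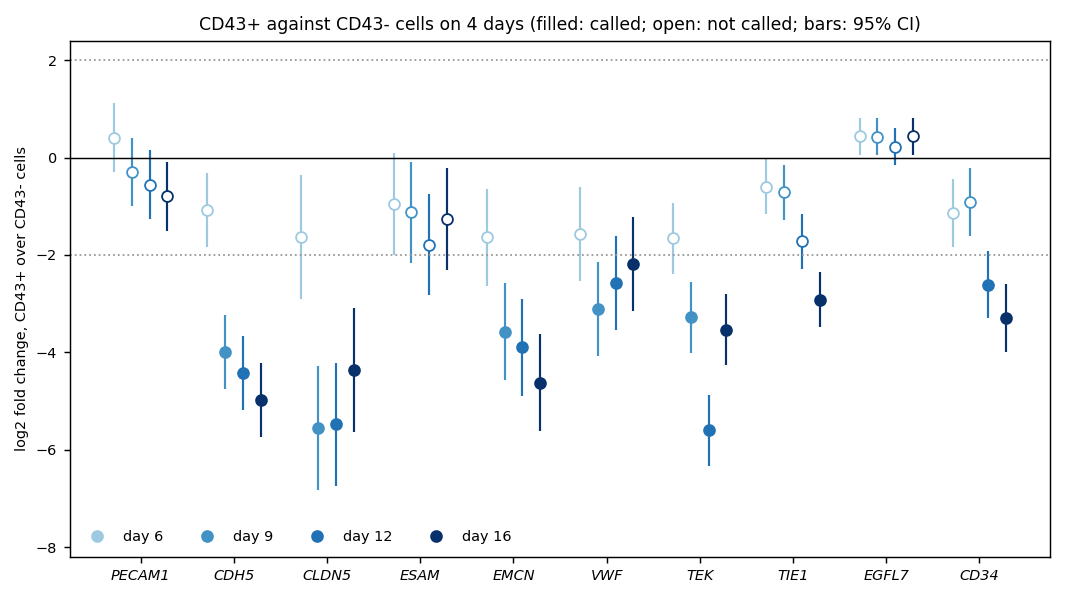
Log2 fold change of CD43+ over CD43- cells for the 10 genes on days 6, 9, 12 and 16, from limma on log2(value + 1) with 3 replicates per population. Bars are 95% confidence intervals, filled points are called and dotted lines mark the 4-fold limit. No gene is called on day 6, CDH5, CLDN5, EMCN, VWF and TEK are called from day 9, CD34 from day 12 and TIE1 on day 16.

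Among the junction genes, CDH5 fell in CD43+ cells between days 6 and 9 and stayed low. CDH5 in CD43+ cells stood at 5644, 4481 and 6144 on day 6, 440, 457 and 584 on day 9, 301, 171 and 186 on day 12 and 233, 243 and 263 on day 16. The CD43- cells stood at 12854, 5198 and 7038 on day 9, 4850, 4480 and 4380 on day 12 and 6592, 8512 and 8281 on day 16. The 2 populations overlapped on day 6 alone. From day 6 to day 9 it fell in CD43+ cells by 3.45 on the log2 scale (SE 0.37, adjusted p = 5.05e-08 by limma), 1 of 3 members that did so against 3.97% of all genes. Its difference from CD43- cells went from -1.08 ± 0.37 on day 6 to -3.99 ± 0.37 on day 9, -4.42 ± 0.37 on day 12 and -4.97 ± 0.37 on day 16. Mean CD43+ values were 38.8% of those in CD43- cells on day 6 and 3.16% on day 16. Its day 16 CD43+ values were still above all 3 day 0 values (18, 50 and 38).

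CLDN5 followed the same days. Its CD43+ values were 436, 274 and 185 on day 6, 32, 6 and 96 on day 9, 24, 19 and 30 on day 12 and 40, 87 and 38 on day 16. In CD43- cells they were 1736, 1180 and 1122 on day 9, 1084, 1034 and 1228 on day 12 and 1026, 923 and 1312 on day 16. Over these 3 days the highest CD43+ sample was at 96 and the lowest CD43- sample at 923. CLDN5 fell in CD43+ cells from day 6 to day 9 (-3.32 ± 0.62, adjusted p = 0.000148) and differed from CD43- cells by -5.55 ± 0.62 on day 9, -5.48 ± 0.62 on day 12 and -4.37 ± 0.62 on day 16. Its low CD43+ values spread widely on day 9. The interval of the day 9 difference ran from -6.82 to -4.28, but its width does not show that spread. The standard error was pooled over all populations in the fit and was 0.62 on day 12 as well, where the CD43+ values lay closer together.

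ESAM kept a share of its level. It stood at 1974, 1488 and 1286 in CD43+ cells on day 6, 1264, 1414 and 1438 on day 9, 322, 916 and 595 on day 12 and 1070, 1543 and 516 on day 16. The CD43- values were 3310, 2680 and 3020, 2521, 1584 and 1828, and 2024, 2350 and 2478 on the 3 later days, above every CD43+ sample of the same day. The differences were -0.95 ± 0.51 on day 6, -1.13 ± 0.51 on day 9, -1.79 ± 0.51 on day 12 (adjusted p = 0.00288) and -1.26 ± 0.51 on day 16 (adjusted p = 0.0301), none of them called. Their 95% intervals reached -2.17, -2.83 and -2.30 on the last 3 days, so a 4-fold difference lay within them. Without day 12 CD43+ replicate 2 the day 12 difference was -2.15 and was called. The mean in CD43+ cells stayed between 30.9% and 45.7% of that in CD43- cells over the 4 days.

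PECAM1 was not called different between the populations on any day. It stood at 5704, 5314 and 5641 on day 6, 4078, 4116 and 4329 on day 9, 3820, 4478 and 3517 on day 12 and 5785, 6468 and 5483 on day 16. The CD43- values were 8083, 4430 and 2049, 7776, 3542 and 4900, 6820, 5909 and 4786, and 9496, 11198 and 10082 on the same days. The populations overlapped on days 6 and 9 and not on days 12 and 16. The differences were 0.41 ± 0.34, -0.30 ± 0.34, -0.56 ± 0.34 and -0.80 ± 0.34, the last with an adjusted p of 0.0432, and each of their 95% intervals left out a 4-fold difference. The sign turned on day 6 without CD43- replicate 3 (-0.11) and on day 9 without CD43- replicate 1 (0.0024). PECAM1 was highest of all in day 16 CD43- cells, with a mean of 10259 ± 865 (SD, n = 3). Some blood genes were also higher there, as 13 of 16 megakaryocyte and platelet genes, 7 of 9 erythroid and 7 of 10 neutrophil genes were called higher in day 16 than in day 12 CD43- cells, against 4.46% of all genes. Of 11 monocyte and macrophage genes, 1 was called higher and 6 lower, against 5.97% of all genes lower. The megakaryocyte and platelet genes summed to 2678, 4760 and 6402 in CD43- cells on day 12 and to 11289, 26694 and 15748 on day 16, and the part of these lineages in the PECAM1 level was not tested.

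The sialomucins EMCN and CD34 were called from different days. EMCN stood at 56, 44 and 34 in CD43+ cells on day 6, 20, 28 and 44 on day 9, 20, 8 and 10 on day 12 and 14, 14 and 13 on day 16. In CD43- cells it stood at 413, 304 and 368 on day 9, 218, 171 and 182 on day 12 and 344, 345 and 396 on day 16. The populations did not overlap on any of the 4 days, and the differences were -1.64 ± 0.49, -3.58 ± 0.49, -3.90 ± 0.49 and -4.63 ± 0.49, called from day 9. EMCN is a gene of low values here, and no step between successive CD43+ days was called. Its CD43+ mean on days 9, 12 and 16 was 68.7%, 28.4% and 30.6% of that on day 6, while its CD43- mean went from 168 on day 6 to 362 on day 9.

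CD34 was called lower in CD43+ than in CD43- cells from day 12. In CD43+ cells it stood at 3517, 2128 and 2826 on day 6 and 3324, 2636 and 3517 on day 9, and at 328, 534 and 560 on day 12 and 633, 680 and 467 on day 16. From day 9 to day 12 it fell by 2.76 on the log2 scale (SE 0.34, adjusted p = 1.36e-07), 1 of 2 members that did so, with TEK, against 6.54% of all genes. In CD43- cells it stood at 8083, 4194 and 6070 on day 9, 3400, 2980 and 2204 on day 12 and 5251, 5785 and 6250 on day 16. The populations overlapped on day 6 and on no later day. The difference from CD43- cells was -1.14 ± 0.34 on day 6 and -0.91 ± 0.34 on day 9, both with adjusted p below 0.05 but under 4-fold, and -2.61 ± 0.34 on day 12 and -3.29 ± 0.34 on day 16, both called. Compared with day 6, this difference had shifted by 0.23 ± 0.48 at day 9 and by -2.15 ± 0.48 at day 16. The latter was under the 4-fold limit without day 6 CD43- replicate 3 (-1.58), day 6 CD43+ replicate 1 (-1.98) or day 16 CD43+ replicate 3 (-1.99).

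The receptors TEK and TIE1 were called lower in CD43+ cells from different days, TEK from day 9 and TIE1 on day 16. TEK stood at 1991, 2243 and 2974 on day 6, 508, 576 and 426 on day 9, 28, 58 and 81 on day 12 and 326, 413 and 117 on day 16. It fell from day 6 to day 9 (-2.24 ± 0.35) and again from day 9 to day 12 (-3.27 ± 0.35), the only member called on both steps, and on day 12 it stood below day 0 EBs (273, 265 and 343) with a difference of -2.49 ± 0.35, the only member called below day 0 on any day (16.5% of all genes were called lower than day 0 on day 12). From day 12 to day 16 it rose by 2.28 ± 0.35 (1 of 10 against 3.79% of all genes), a call that was under 4-fold without day 12 CD43+ replicate 1 (1.86) or day 16 CD43+ replicate 2 (1.92). The sort also changed between these days. In CD43- cells TEK stood at 8793, 8494 and 5550 on day 6, 6912, 3716 and 4504 on day 9, 1690, 3371 and 2804 on day 12 and 2409, 3080 and 3343 on day 16. It never overlapped with CD43+ cells, and the differences were -1.65 ± 0.35, -3.28 ± 0.35, -5.60 ± 0.35 and -3.53 ± 0.35.

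TIE1 stood at 6006, 4716 and 5703 in CD43+ cells on day 6, 3684, 4374 and 4241 on day 9, 853, 1523 and 1600 on day 12 and 872, 876 and 696 on day 16. The CD43- values were 14678, 8970 and 4290, 9722, 5130 and 6068, 4114, 4658 and 3895, and 5906, 6068 and 6466. The populations overlapped on day 6 only. The differences were -0.60 ± 0.27, -0.72 ± 0.27, -1.72 ± 0.27 and -2.92 ± 0.27, of which the last was called. On day 12 the adjusted p was 3.72e-06 with a fold below 4. The step from day 9 to day 12 in CD43+ cells was -1.68 ± 0.27 (adjusted p = 9.93e-06), also under 4-fold. Between days 6 and 16 the difference shifted by -2.32 ± 0.39, or -1.85 without day 6 CD43- replicate 3.

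Of the secreted proteins, VWF was called lower in CD43+ than in CD43- cells and EGFL7 was not. VWF stood at 1192, 618 and 562 in CD43+ cells on day 6, 212, 202 and 300 on day 9, 92, 231 and 140 on day 12 and 236, 300 and 96 on day 16. In CD43- cells it stood at 4478, 2534 and 972, 2958, 1576 and 1817, 1548, 534 and 764, and 740, 937 and 947. The 2 populations overlapped on day 6 only. The differences were -1.58 ± 0.47, -3.12 ± 0.47, -2.57 ± 0.47 and -2.19 ± 0.47, called from day 9, and on day 16 the fold was under 4 without CD43+ replicate 3 (-1.70). From day 9 to day 16 the mean in CD43- cells went from 2117 to 875 and that in CD43+ cells from 238 to 211.

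EGFL7 stood at 4285, 3853 and 4504 in CD43+ cells on day 6, 3222, 3241 and 3276 on day 9, 2208, 3680 and 2952 on day 12 and 5476, 5698 and 4602 on day 16. The CD43- values were 4652, 2952 and 2192, 2584, 2409 and 2243, 1990, 2550 and 2974, and 3814, 3568 and 4285. It was the only member with higher fitted values in CD43+ cells on all 4 days, with differences of 0.43, 0.43, 0.22 and 0.43 (SE 0.19 each), and the populations did not overlap on days 9 and 16, where the adjusted p was 0.0439 and 0.0418. None of the differences came near 4-fold, the widest 95% interval reaching 0.82. The day 16 CD43+ cells had the highest mean of all populations, 5259 ± 579 (SD, n = 3), above every other sample except that day 6 CD43- replicate 1 (4652) lay above the lowest of them (4602). From day 12 to day 16 the difference in CD43+ cells was 0.86 ± 0.19 (adjusted p = 0.000553), under 4-fold.

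An intron of EGFL7 holds the hairpin of miR-126, a microRNA of endothelium and blood progenitors, at chr9:136670602-136670686 on the plus strand, in all 4 basic GENCODE transcripts of the gene. No row of the table carries this microRNA, so its level was not analysed here and EGFL7 mRNA is the only readout of the locus. Its mature strands are shown since they come from the same transcript, with the seed, bases 2 to 8, in capitals.
hsa-miR-126-5p: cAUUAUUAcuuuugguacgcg
hsa-miR-126-3p: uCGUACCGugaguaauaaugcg
The 2 strands do not share a seed.

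Persistence in CD43+ cells was described in 2 ways. By level, a gene was taken as present on a day when all 3 CD43+ values were at or above 197, the median of all genes. PECAM1, ESAM, TIE1, EGFL7 and CD34 met this on days 6, 9, 12 and 16, VWF and TEK on days 6 and 9, CDH5 on days 6, 9 and 16, where on day 12 replicates 2 and 3 were at 171 and 186, and CLDN5 and EMCN on no day. In all, 8, 8, 5 and 6 of the 10 genes met it on the 4 days, against 48.3%, 48.6%, 47.2% and 47.9% of all genes. The CD43+ counts of days 12 and 16 were thus near the background. In CD43- cells 9, 10, 9 and 10 did, against 47.1%, 47.4%, 45.8% and 48.4%. At the 75th percentile, a value of 792, only PECAM1 and EGFL7 were present on all 4 days, TIE1 until day 12, ESAM and CD34 until day 9, and CDH5 and TEK on day 6 alone. These were 7, 5, 3 and 2 of the 10 genes, against 23.4%, 23.8%, 22.4% and 22.8% of all genes, so the counts of days 12 and 16 were near the background. At the 25th percentile, a value of 16, 10, 9, 9 and 9 of the 10 were present, against 72%, 71.7%, 70.4% and 71.7% of all genes.

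By test against day 0 EBs, each of the 10 genes passed as higher in day 6 CD43+ cells (10.6% of all genes did), 7 on day 9 (12.2%), 6 on day 12 (16.6%) and 8 on day 16 (14.7%). PECAM1, CDH5, ESAM, EMCN, TIE1 and CD34 were called on each of the 4 days. PECAM1 was 9.53 ± 0.34 above day 0 on day 16, ESAM 8.59 ± 0.51, CD34 5.07 ± 0.34, CDH5 2.88 ± 0.37, TIE1 2.75 ± 0.27 and EMCN 2.24 ± 0.49. EMCN stood at 13 to 14 there and at 1 to 4 on day 0, and its calls on days 9, 12 and 16 were lost with a pseudocount of 10. They were also under 4-fold without day 0 replicate 3 on days 12 (1.72) and 16 (1.92) and without day 12 CD43+ replicate 1 on day 12 (1.68). VWF was called on days 6 and 9 (2.22 ± 0.47 on day 9, 1.86 without day 0 replicate 3) and stood at 1.91 ± 0.47 on day 16, past 4-fold without day 0 replicate 1 (2.16), day 0 replicate 2 (2.02) or day 16 CD43+ replicate 3 (2.399). CLDN5 was called on days 6 and 16 (2.84 ± 0.62 on day 16, a call lost with a pseudocount of 10, at 1.90). It stood at 1.95 ± 0.62 on day 9 and 1.78 ± 0.62 on day 12, and was past 4-fold without day 0 replicate 3 (2.25 and 2.08) and, on day 9, without day 9 CD43+ replicate 2 (2.96) or with a pseudocount of 0.1 (2.07). TEK was called higher on day 6 only, and it was called lower on day 12 (-2.49 ± 0.35). EGFL7, already at 878 to 1122 on day 0, was called on days 6 (2.05 ± 0.19) and 16 (2.37 ± 0.19), and the day 6 call was under 4-fold without day 0 replicate 3 (1.94) or day 6 CD43+ replicate 3 (1.9994).

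**Figure D4:**
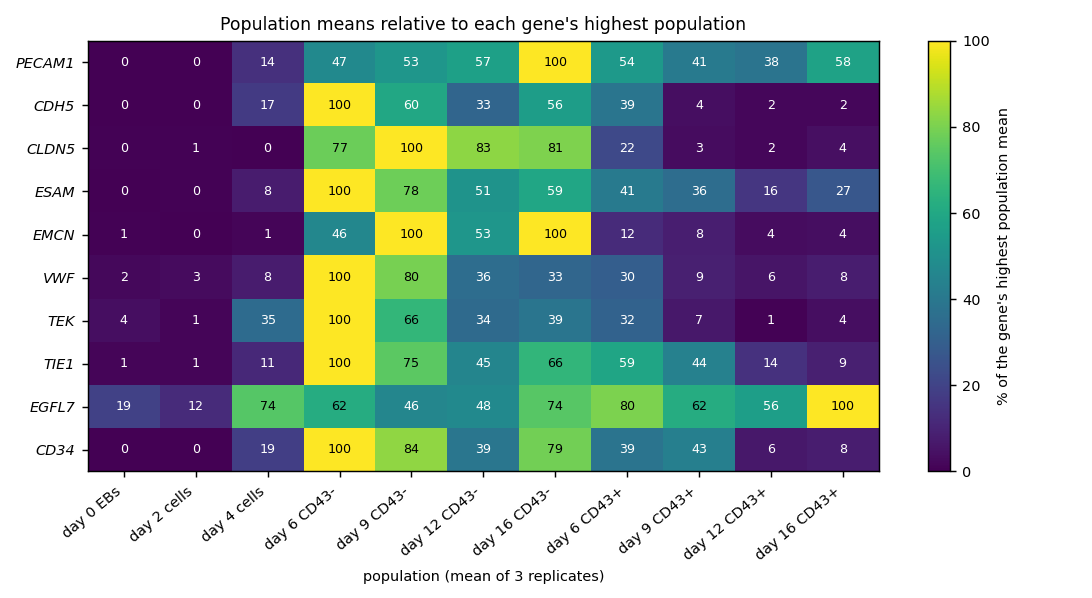
Mean of 3 replicates of each gene in the 11 differentiated populations, as a percent of that gene's highest population mean. Most genes peak in CD43- cells of day 6 or 9, EGFL7 peaks in day 16 CD43+ cells, and on day 12 CDH5, CLDN5, EMCN, VWF, TEK and CD34 are at 6.5% or less in CD43+ cells.

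In CD43- cells no member was called between successive days. Of all genes 1.75%, 7.33% and 10.4% were called from day 6 to 9, 9 to 12 and 12 to 16, so these counts were near the background. By limma, 1, 5 and 4 members had an unadjusted p below 0.05 and 0, 3 and 2 an adjusted one. From day 9 to day 12 those were VWF (-1.25 ± 0.47), TEK (-0.95 ± 0.35) and CD34 (-1.07 ± 0.34), and from day 12 to day 16 CD34 (1.03 ± 0.34) and EGFL7 (0.65 ± 0.19). The members in CD43- cells summed to 56348, 29929 and 37150 on day 9 and to 37602, 42766 and 43840 on day 16.

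Ordered by population mean, CDH5, ESAM, VWF, TEK, TIE1 and CD34 were highest in day 6 CD43- cells, CLDN5 in day 9 CD43- cells, EMCN in day 9 and day 16 CD43- cells alike (mean 362 in both), PECAM1 in day 16 CD43- cells and EGFL7 in day 16 CD43+ cells. The range of the first population overlapped with that of the second for every member except PECAM1 and EGFL7. For TIE1 the range of day 12 CD43+ cells reached down to 853 and overlapped with the next, unsorted day 4 cells (1052 to 1086). TEK alone had its lowest mean in day 12 CD43+ cells, 55.7 ± 26.6 (SD, n = 3), below that of day 2 cells (102), and the ranges of these 2 did not overlap.

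Over the 11 population means of log2(value + 1), the members were alike to different degrees. The highest Pearson r was 0.97 for TIE1 and CD34, followed by 0.96 for CLDN5 and EMCN, and the lowest were 0.39 for CLDN5 and EGFL7 and 0.41 for TEK and EGFL7. These are descriptions over 11 means that share the same cultures. Over the rest of the table, with the 10 members left out of the search, the gene most like CDH5 was CXorf36 (r = 0.99) and the gene most like PECAM1 was ICAM2 (0.99), an adhesion molecule of endothelium and leucocytes. PTPRB, the phosphatase of the TIE receptors, was most like EMCN (0.98), PLVAP, of endothelial fenestrae, most like CD34 (0.98), CLEC14A most like CLDN5 (0.97), PLAGL1 most like ESAM (0.98), DLL4, a Notch ligand of arteries, most like VWF (0.97), SHANK3 most like TIE1 (0.97), ECE1 most like TEK (0.96) and ST3GAL5 most like EGFL7 (0.96). Among the genes closest to the mean profile of the 10 were NID1, PLVAP, MMRN2 and S1PR1, at r = 0.98, 0.97, 0.97 and 0.97.

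Partners of TEK and TIE1 were called in both directions. Of 17 genes of the angiopoietin pathway, 1, 2, 2 and 4 were called higher in CD43+ cells on days 6, 9, 12 and 16 and 3, 5, 5 and 5 lower. Of all genes 4.69%, 8.65%, 11.8% and 12.2% were called higher on these days and 7.85%, 12.8%, 14.4% and 13.6% lower, so the higher counts of days 6, 9 and 12 were near the background. ANGPT1, the activating ligand of TEK, stood at 2848 to 3262 in CD43+ cells and 304 to 417 in CD43- cells on day 9, and was called higher on day 9 (3.08 ± 0.43) and day 16 (3.14 ± 0.43). ANGPT2, the context-dependent ligand, stood at 400 to 900 in CD43- cells and 17 to 50 in CD43+ cells on day 6, and was called lower in CD43+ cells on day 6 (-4.33 ± 0.51) and day 9 (-3.64 ± 0.51). On day 9 the ligand ANGPT1 was thus high where TEK, at 426 to 576, had fallen. PTPRB was lower from day 9 (-3.66, -3.60 and -5.06 on days 9, 12 and 16), and SVEP1, a matrix ligand of TIE1, on all 4 days (-2.42, -6.17, -7.54 and -7.26, the first under 4-fold without day 6 CD43- replicate 3, at -1.97). NOS3, endothelial nitric oxide synthase and a downstream target, was at 949 to 1555 in day 6 CD43+ cells with a difference of -0.09 ± 0.32, and lower from day 9 (-2.72, -3.40 and -3.46). DOK2, an adaptor of TEK that is also a blood cell adaptor, was higher on all 4 days (3.51, 8.69, 5.82 and 4.93, the first not called with a pseudocount of 10, at 1.64). ANGPT4, another ligand, stood at 98 to 166 in CD43+ cells and 12 to 16 in CD43- cells on day 12. On day 16 it stood at 126 to 154 and 24 to 38, a difference under 4-fold with a pseudocount of 10 (1.93). GRB7 was at 1 to 3 in day 6 CD43+ cells and 72 to 148 in day 6 CD43- cells. GRB2 was at 9488 to 9888 in day 16 CD43+ cells and 1585 to 1800 in day 16 CD43- cells. AKT1, PIK3CA, PIK3R1, SHC1, FOXO1, PTPN11 and TNIP2 were not called on any day.

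Of 33 further junction genes, 3, 11, 14 and 13 were called lower in CD43+ cells on days 6, 9, 12 and 16, and 1, 1, 1 and 2 higher, against 7.85%, 12.8%, 14.4% and 13.6% of all genes lower and 4.69%, 8.65%, 11.8% and 12.2% higher. The day 6 count was near the background. The gap junction gene GJA1 (-2.38, -3.93, -6.93 and -7.96) and the N-cadherin gene CDH2 (-2.24, -5.14, -6.05 and -5.22, the first at -1.88 without day 6 CD43- replicate 2) were lower on all 4 days, and GJA5 (-4.67, -5.24 and -6.75), CGNL1 (-5.62, -5.95 and -6.55), TJP1, which encodes ZO-1 (-2.61, -4.41 and -3.68), and MCAM (-2.71, -3.71 and -5.08) from day 9. The catenins that bind VE-cadherin were not called, and CTNNB1, beta-catenin, was at -0.89, -1.39, -0.81 and -1.15 on the 4 days, with adjusted p of 1.01e-06, 1.53e-10, 1.34e-06 and 3.68e-09 and every fold below 4. CTNNA1, CTNND1, JUP and the adhesion molecule F11R were not called either. ICAM2, the gene most like PECAM1, was not called on any day (1.23, 1.24, -0.46 and 0.03). PTPN6, a blood cell phosphatase that binds PECAM1, was the gene called higher on each day (2.99, 4.62, 4.63 and 3.89). PTPRJ joined it on day 16 at 2.06, which was under 4-fold without day 16 CD43- replicate 1 (1.88) or CD43+ replicate 2 (1.83).

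Among 12 claudins other than CLDN5 that were tested, 4, 4, 6 and 6 were called lower in CD43+ cells on the 4 days (7.85%, 12.8%, 14.4% and 13.6% of all genes), with CLDN3, CLDN4, CLDN6 and CLDN19 among them each time. CLDN10 was called higher on days 6, 9 and 12 (4.31, 4.50 and 3.57). That was 1 of the 12 on each of these days, near the background of 4.69%, 8.65% and 11.8% of all genes called higher. Among 8 sialomucins, selectins and their partners, 0, 2, 3 and 3 were called higher in CD43+ cells on the 4 days and 1, 2, 2 and 2 lower. Of all genes 4.69%, 8.65%, 11.8% and 12.2% were called higher and 7.85%, 12.8%, 14.4% and 13.6% lower, so the day 6 counts were near the background. PODXL, a sialomucin related to CD34, was lower on all 4 days (-3.27, -4.78, -5.66 and -6.60) and SELE from day 9, while SELP and SELPLG were called higher from day 9. In the list of 17 VWF storage and receptor genes, 5, 6, 6 and 6 were higher in CD43+ cells (4.69%, 8.65%, 11.8% and 12.2% of all genes) and 2, 2, 2 and 3 lower, the latter near the background of 7.85%, 12.8%, 14.4% and 13.6%. The platelet receptor for VWF, made of GP1BA, GP1BB, GP5 and GP9, was higher on all 4 days, with GP9 at 4.20, 7.54, 7.38 and 2.92, on days when VWF itself was lower from day 9.

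Markers of other cells moved with these results, on days when 7.85%, 12.8%, 14.4% and 13.6% of all genes were called lower in CD43+ cells and 4.69%, 8.65%, 11.8% and 12.2% higher. Of 32 other endothelial genes, 8, 22, 23 and 23 were called lower in CD43+ cells on the 4 days and 0, 0, 1 and 1 higher, the latter STAB1 (2.42 and 2.27), also a macrophage gene, which held the highest value of the list, not scaled for gene length, in every day 12 and day 16 CD43+ sample. KDR, the VEGF receptor, was at -0.93 on day 6 and -3.05, -5.53 and -4.93 afterwards. Of 16 megakaryocyte and platelet genes, 11, 15, 15 and 15 were called higher in CD43+ cells and 1, 0, 0 and 0 lower (CLEC1B on day 6), and they summed to 67738, 75805 and 85906 in day 9 CD43+ cells against 9630, 2017 and 5355 in CD43- cells. Of 11 monocyte and macrophage genes, 2, 8, 11 and 11 were called higher and 0, 1, 0 and 0 lower (MRC1 on day 9). The part of blood lineages that carry PECAM1, ESAM or VWF in the persistence of these genes was not tested.

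Of 11 mesenchymal genes, 7, 11, 11 and 11 were called lower in CD43+ cells, against 7.85%, 12.8%, 14.4% and 13.6% of all genes, and none higher. None of them was listed at 0 in any sorted sample, and their summed value in CD43+ cells was 60161, 74448 and 156258 on day 6 and 4352, 8699 and 22153 on day 9. So day 6 CD43+ cells carried both endothelial and mesenchymal transcripts, and replicate 3 had the most of the latter. Among the 10 genes that replicate was the highest of its population for CDH5, TEK and EGFL7 and the lowest for CLDN5, EMCN, ESAM and VWF. The part of these transcripts in the day 6 values was not tested.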

How the data were processed

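RNA sequencing of 34 samples of H1 cells was analysed. For alignment and quantification the authors used RSEM with bowtie2 and an index of Ensembl genes, followed by EDASeq for the GC normalization. Their processing notes also name STAR 2.7 and hg38. The libraries went to 2 sequencing providers, and which sample went to which is not given in the sources used here. The deposited values were treated as a normalized score, neither raw counts nor CPM. All 34 samples held the same sorted values, summing to 17856940. Depth and counting error are therefore unknown, and errors come from replicates alone.

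On the log2 scale, with 1 added to each value, 33 samples entered a single linear model in limma 3.58.1 (R 4.3.3), moderated with a mean-variance trend, and p-values were adjusted over 19788 genes by Benjamini-Hochberg. A gene was tested if 3 or more samples held it at 10 or above, which all 10 members did and 467 genes did not. In this model the error of a gene is pooled over all populations. Standard errors and intervals therefore do not follow the spread within the populations compared. The added 1 makes fold changes of low genes too small. The members and the gene lists (angiopoietin pathway, junction genes, claudins, sialomucins and selectins, VWF storage and receptor, and markers of endothelial, megakaryocyte, macrophage, neutrophil, erythroid, mast, progenitor, mesenchymal, smooth muscle and pluripotent cells) were chosen with earlier results of these data known. The text names the members, the angiopoietin, junction and sort genes, of each other list up to 4 called genes with the largest fold change, and the genes most like the members. KDR, STAB1, CLEC1B, MRC1, COL3A1 and other list genes named beyond this rule were picked after their values were seen. Replicate numbers were taken to pair CD43+ with CD43- samples where each of the 3 same-numbered pairs had r above 0.1 over genes, which day 6 met (0.198, 0.109 and 0.199). Same-numbered pairs were also positive on days 9 and 12, with r of 0.0165 to 0.108. RGS5, on 2 rows, was left out, and some genes that meet the naming rule are not reported here. Alternatives were other pseudocounts, filters, scaling, variance model, fold limit and set of populations, replicate blocks, and leaving out each replicate.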

Additional observations from a re-analysis of the deposited data

Results flagged for a closer look

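For several genes the difference between CD43+ and CD43- cells was not the same on day 6 and later, by limma's test of the change itself with an adjusted p below 0.05 and a change beyond 4-fold. On day 9 the difference had shifted by -2.90 for CDH5 and -3.92 for CLDN5. On day 12 the shift was -3.34 for CDH5, -3.85 for CLDN5, -2.26 for EMCN and -3.95 for TEK. On day 16 it was -3.89 for CDH5, -2.74 for CLDN5, -2.99 for EMCN, -2.32 for TIE1 and -2.15 for CD34. The day 16 shifts also span the change of sort. All 3 comparisons share the day 6 samples, whose CD43- replicates lay far apart for most of these genes, and the part of that spread was not tested. Without day 6 CD43- replicate 3 the day 12 shift of EMCN (-1.79) and the day 16 shifts of TIE1 (-1.85) and CD34 (-1.58) were under 4-fold. The EMCN shift was also under it with a pseudocount of 10 (-1.70). CD34 on day 12, at -1.47, was past 4-fold without day 6 CD43- replicate 1 (-2.008). TEK on day 16, at -1.88, was past 4-fold without day 6 CD43+ replicate 1 (-2.005), day 16 CD43- replicate 1 (-2.02), day 16 CD43+ replicate 1 (-2.07) or day 16 CD43+ replicate 2 (-2.24).

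The single undifferentiated H1 sample, which enters no comparison, held TEK at 732, above the 3 day 0 samples (273, 265 and 343). With 1 sample this has no replicate check.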

How the results depend on the processing

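Counts of called members held within 1.5 times under a pseudocount of 0.1, no filter, a filter at 100, median-of-ratios scaling, robust variances, fits of only the populations compared and both replicate blocks. With a pseudocount of 10 the day 2 count went from 1 to 0. With a fold change above 2 in place of 4, counts were 6 for CD43+ against CD43- cells on day 6 (main 0), 3 for day 2 against day 0 (main 1), 8 for day 6 CD43+ cells against day 4 (main 4), 6 for CD43+ cells from day 9 to day 12 (main 2), 2 for CD43- cells from day 9 to day 12 (main 0) and 1 from day 12 to day 16 (main 0). Leaving out 1 replicate gave 0 to 3 members for CD43+ against CD43- cells on day 6, 2 to 4 for the change from day 6 to day 9, 3 to 6 for that to day 16 and 0 to 1 for CD43+ cells from day 12 to day 16. The PECAM1 difference had a range of -0.11 to 0.88 on day 6, and the range on day 9 was -0.56 to 0.0024, so that its sign depends on CD43- replicates. The cause of these moves was not tested. With the replicate block, over all samples or within day, the CD43 counts were 0, 5, 6 and 7 on days 6, 9, 12 and 16 as without it, and no other count of called members changed. Same-numbered CD43+ and CD43- samples correlated by 0.0165 to 0.0782 on day 9, 0.0389 to 0.108 on day 12 and -0.0152 to 0.0418 on day 16. Median-of-ratios scaling (factors 0.907 to 1.127) shifted every log2 fold change of CD43+ over CD43- cells by -0.167, -0.214, -0.098 and -0.024 on the 4 days and turned no sign among the members. Under it EGFL7 on day 6 was 1.98 above day 0, under 4-fold, and VWF on day 16 was 2.02, past it. Depth is unknown, so values near the bottom of the table, as for EMCN and for CLDN5 in CD43+ cells, have a precision that only 3 replicates show.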

Other observations

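In the undifferentiated H1 sample, PECAM1 stood at 20, CDH5 at 46, CLDN5 at 36, ESAM at 10, EMCN at 2, VWF at 38, TIE1 at 112, EGFL7 at 835 and CD34 at 50. CLDN5 there lay above all 3 day 0 samples (4, 6 and 10) and all 3 day 4 samples (2, 3 and 8).

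Further lists give the makeup of the sorted populations in which the members were measured. On days 6, 9, 12 and 16, 9, 9, 9 and 7 of 9 erythroid genes were called higher in CD43+ cells, with HBE1 at a log2 fold change of 11.47 on day 6. Of 10 neutrophil genes 5, 8, 10 and 10 were higher, with MPO and CTSG reaching 8.27 and 10.09 on day 12, and of 6 mast cell genes 2, 4, 5 and 5, led by HDC at 9.24 on day 9. None of these was called lower. Of all genes 4.69%, 8.65%, 11.8% and 12.2% were called higher on the 4 days and 7.85%, 12.8%, 14.4% and 13.6% lower. Of 10 blood stem and progenitor genes, 2, 5, 2 and 3 were higher, with MYB at 7.57 on day 12, and 2, 3, 3 and 3 lower, with PROM1 at -7.88 on day 12. Smooth muscle and pericyte genes were lower for 2, 4, 5 and 5 of 6, with ACTA2 at -6.43 on day 9. Of 6 pluripotency genes, 2, 0, 0 and 1 were lower, NANOG at -4.99 and POU5F1 at -4.38 on day 6 and SOX2 at -5.54 on day 16. In day 16 CD43- cells the neutrophil genes still summed to 7146, 22225 and 13885, against 211886, 169041 and 236994 in CD43+ cells of that day.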
